A study of Mus musculus with 2 samples.

Results

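A panel of 10 genes that mark the hormone-receptor-bearing luminal cells of the mouse mammary gland was followed after deletion of the miR-200c/141 cluster. It comprised the surface genes Prom1 and Ly6a, the transcriptional regulators Cited1, Tbx3, Msx1 and Msx2, and the secretory genes Ptn, Fgl1, Sytl2 and Wfdc2. These genes were chosen by name, and 10 of 10 were found among the 16906 genes of the deposited table. RNA was measured by bulk sequencing of luminal epithelial cells sorted by flow cytometry from mammary glands of C57BL/6 mice 8 weeks old, with about 20000 cells per library. The CKO library came from mice carrying K8-CreERT2, in which the keratin 8 promoter drives a Cre recombinase that tamoxifen activates, with both alleles of the miR-200c/141 cluster floxed. The Ctrl library came from mice with the same floxed alleles and no Cre driver, and both groups received tamoxifen. Effects of the Cre driver and of the deletion cannot be told apart, since the Ctrl mice carried no Cre. The labels conflict on the time since tamoxifen, which is 4 weeks in the sample characteristics and 3 days in the treatment text. Each group had 1 library, the number of mice behind each is not stated, and no difference below was checked against the spread between animals.

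The mammary duct has an inner luminal layer, in which only some cells carry estrogen and progesterone receptors. These hormone-sensing cells receive ovarian signals and relay them to their neighbours through secreted factors. In mouse, the surface proteins encoded by Ly6a (stem cell antigen 1) and Prom1 (prominin 1, CD133) are widely used to sort them from receptor-negative luminal progenitors. MicroRNAs such as miR-200c and miR-141 lower the output of messenger RNAs that match their seed, bases 2 to 8 of the mature strand.

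The mature strands deleted in the CKO mice, from RefSeq (GRCm38.p6, chromosome 6, minus strand), are shown because their seeds define the sites sought in the panel. Seed bases are in capitals.
miR-200c-3p: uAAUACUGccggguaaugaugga
miR-141-3p: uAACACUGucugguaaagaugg

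None of the 10 genes held a 7-base match to bases 2 to 8 of either strand in its longest annotated 3' UTR (GENCODE M21, GRCm38). The letters sought on the sense strand were CAGTATT, which pairs with the miR-200c-3p seed, and CAGTGTT, which pairs with that of miR-141-3p. Of 16172 genes with a 3' UTR of at least 30 bases, 28.0% held a match. UTRs of the panel ran between 76 bases in Cited1 and 1799 bases in Ptn, and 7 of 10 were shorter than the median of all genes, 1096 bases. Among the 10707 genes with UTRs in that range of lengths, 15.8% held a match. With the shorter 6-base match to bases 2 to 7, 3 of 10 panel genes had a site, against 52.1% of all genes and 37.2% of the genes in that range of lengths.

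The 4 sites of the 6-base match are shown because they are the matches found in the panel. They are given with 15 bases before and 2 after, and the 6-base match is in capitals.
Tbx3, miR-200c-3p seed, chr5:119684009-119684014, plus strand: acgactattggacaaAGTATTta
Tbx3, miR-200c-3p seed, chr5:119684633-119684638, plus strand: aaaaacccaagaaggAGTATTtt
Sytl2, miR-200c-3p seed, chr7:90410304-90410309, plus strand: taaaaacagcattaaAGTATTca
Ptn, miR-141-3p seed, chr6:36739941-36739946, minus strand: tttaccaactttctaAGTGTTac
Each lies in the last exon of its transcript, exon 8 of 8 in Tbx3, 18 of 18 in Sytl2 and 4 of 4 in Ptn. The match in Ptn is followed by an A, which pairs with the first base of miR-141-3p. Matches that take in the first base were not among the 7-base matches sought. A match is a description of sequence and not a shown site, and a missing match says only that these letters are not in the annotated UTR.

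Levels are given as deposited FPKM, which divides fragments by transcript length and library size, so they can be compared between genes. The panel spanned from the most abundant transcripts of these cells to genes near the limit of detection. Ptn stood at 1131.8 FPKM in CKO and 1206.18 in Ctrl, the 62nd and 48th highest of all genes. In both libraries Ptn was followed by Wfdc2, Ly6a, Cited1, Prom1, Tbx3 and Msx2. Neighbours in that order differed by more than their counting intervals, except Ly6a and Cited1 in Ctrl. Sytl2, Fgl1 and Msx1 were under 1 FPKM in both libraries, and in each library the counting intervals of neighbours among these 3 overlapped. Msx2, the next gene up, was separated from them by its interval. The panel splits into 7 genes averaging 9.86 FPKM or more over both libraries and 3 genes averaging at most 0.86 FPKM. Bulk RNA of all sorted luminal cells shows that those 7 were expressed and the other 3 scarcely detected, and not in which luminal cells.

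**Figure D1:**
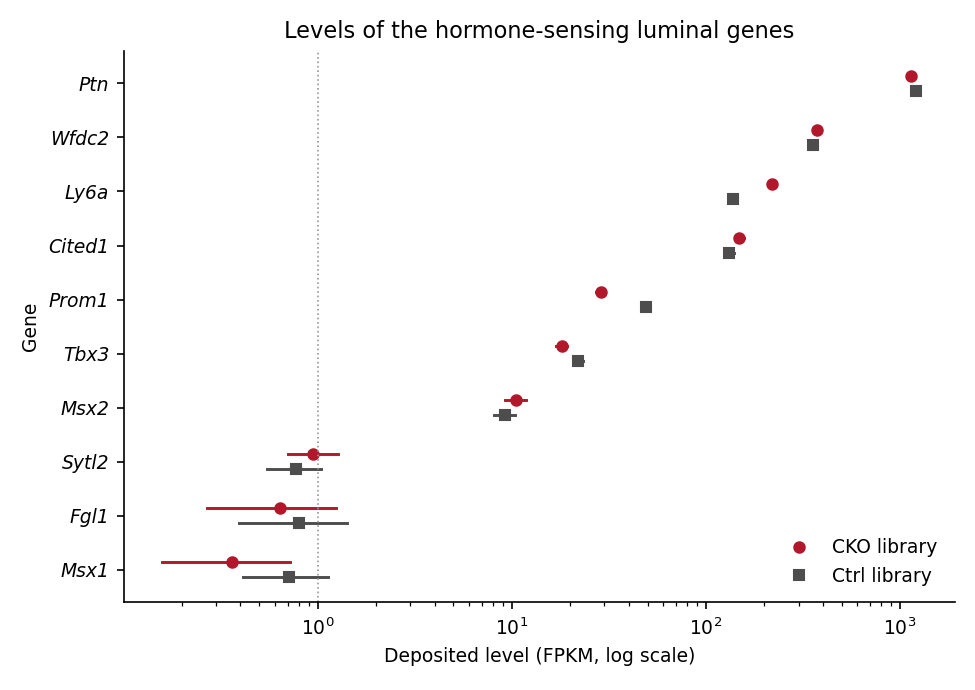
Deposited level of each gene (x axis, FPKM on a log scale) in the CKO library (red circles) and the Ctrl library (grey squares), with 95% exact Poisson intervals from the estimated reads as bars and a dotted line at 1 FPKM. For Ly6a (220.18 in CKO and 138.17 in Ctrl) and Prom1 (28.63 in CKO and 48.96 in Ctrl) the libraries stand apart, with bars that do not overlap. For Msx1 (0.36 in CKO and 0.71 in Ctrl) they also stand apart, but the bars overlap.

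Both surface genes differed between the libraries, in opposite directions, and no other panel gene passed the same rule. A gene was counted as higher or lower in CKO with a mean of at least 1 FPKM, at least a 1.5-fold ratio and a 95% counting interval that excluded a ratio of 1. Of the 7 genes that reached that mean, 1 was higher and 1 lower in CKO. Of all 11667 genes at that mean, 2.28% were higher and 3.04% lower. The ratios are CKO over Ctrl on a log2 scale after adding 0.5 FPKM. Their intervals are exact conditional binomial intervals from estimated reads, without the added 0.5 FPKM, and cover counting error only. No test across samples was possible. Of the same 7 genes, 5 had an interval that excluded a ratio of 1 at any fold, against 40.0% of genes at that mean. With the fold set at 1.2 instead, 1 gene (Ly6a) was higher and 2 (Prom1 and Tbx3) were lower, against 8.1% and 13.9% of genes.

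**Figure D2:**
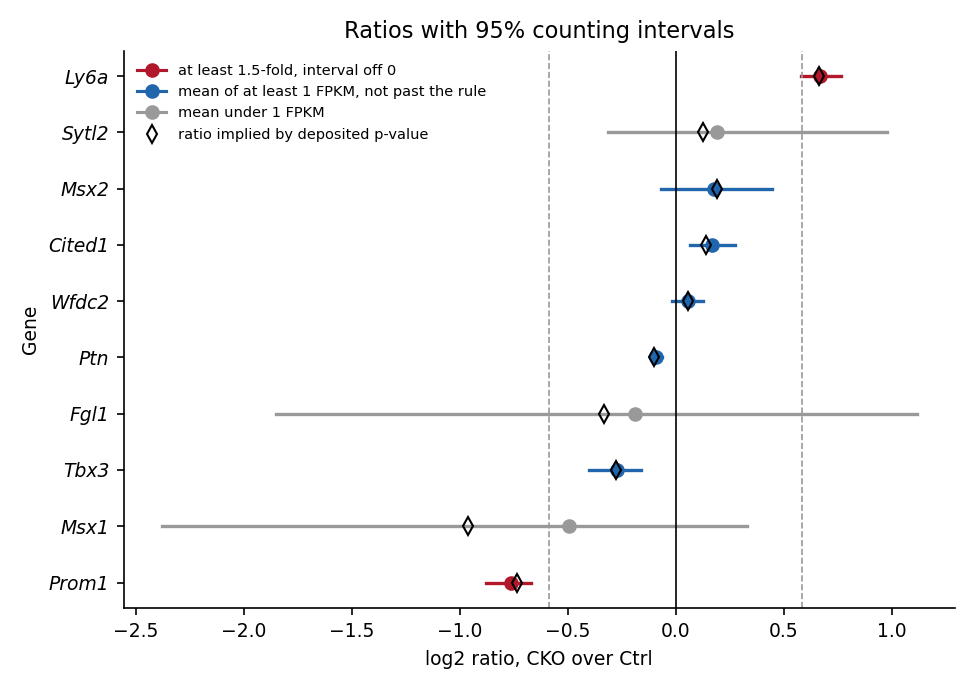
Log2 ratio of CKO over Ctrl for each gene (points) with its 95% counting interval (bars), and the read ratio implied by the deposited p-value (open diamonds). Dashed lines mark 1.5-fold. Ly6a, at 0.67, and Prom1, at -0.76, lie outside them with narrow intervals, and the intervals of Msx1, Fgl1 and Sytl2 span 0.

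Ly6a encodes a small protein of the Ly6 family, held at the cell surface by a lipid anchor. Its level was 220.18 FPKM in CKO and 138.17 FPKM in Ctrl, from about 2405 reads in CKO and 1648 in Ctrl. Ly6a was thus 1.59-fold higher in CKO, which is 0.67 on the log2 scale with a counting interval of 0.58 to 0.76. Of the genes tested, 1.81% had a ratio as far or farther on that side. In the authors' deposited table the false discovery rate of Ly6a is 9.22e-46, from their test of one library against the other, and the gene is not among the deposited calls, which need at least a 2-fold ratio. Ly6a (Entrez gene 110454) lies on chromosome 15 at 74994877 to 74998031 in GRCm38.p6. Of its 906 windows of 50 bases, 91 also occur in transcripts of Ly6c1, Ly6c2, Ly6i or I830127L07Rik, so some of its reads could have been shared. Ly6c1 stood at 15.14 FPKM in CKO and 13.03 in Ctrl, and Ly6i at 0.21 in CKO and 0.57 in Ctrl.

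Prom1 encodes a pentaspan membrane glycoprotein of membrane protrusions. Its level was 28.63 FPKM in CKO and 48.96 FPKM in Ctrl, from about 1186 reads in CKO and 2215 in Ctrl. Prom1 was thus 1.70-fold lower in CKO, which is -0.76 on the log2 scale with a counting interval of -0.88 to -0.67. Of the genes tested, 1.26% had a ratio as far or farther on that side. The deposited false discovery rate is 1e-45 in the authors' deposited table, again without a call. The level of Ly6a was 7.69 times that of Prom1 in CKO and 2.82 times in Ctrl. Prom1 (Entrez gene 19126) lies on chromosome 5 at 43993621 to 44102047. GENCODE places Gm42716 on the same strand and Gm16401 on the opposite strand in overlap with it. The sources used here do not state whether strand was counted. Of the 4040 windows of 50 bases in the longest coding Prom1 transcript, 0 occur in annotated transcripts of other genes on either strand. Other Prom1 transcripts were not searched. In bulk RNA, fewer cells of a type and less RNA per cell cannot be told apart, and this holds for every gene here.

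**Figure D3:**
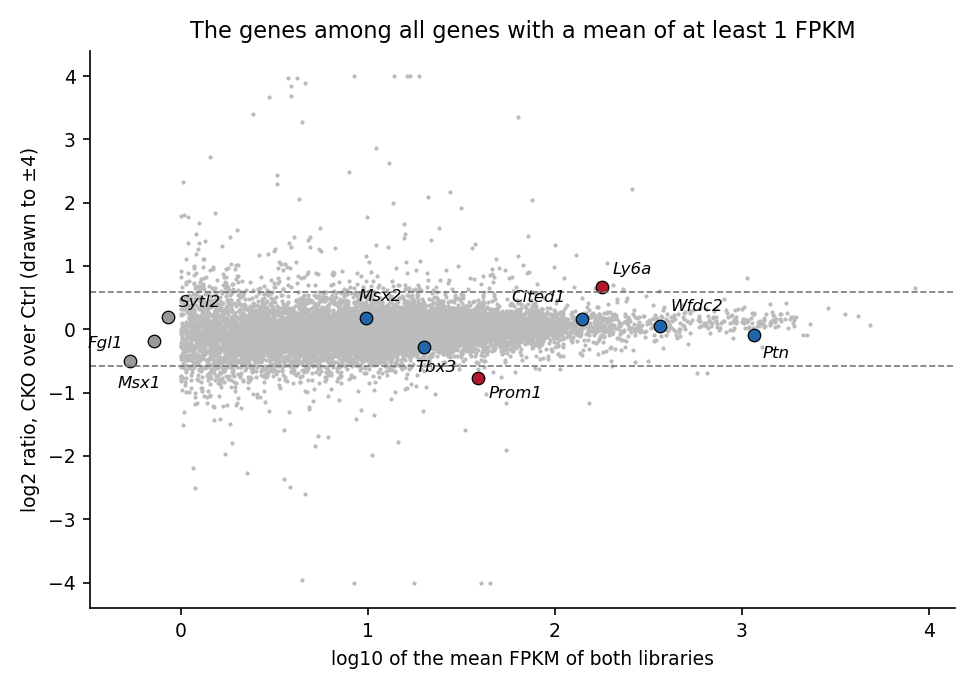
Log2 ratio of CKO over Ctrl (y axis) against log10 of the mean FPKM (x axis) for all genes with a mean of at least 1 FPKM (small grey points), with the 10 panel genes marked, the 3 under that mean in larger grey. Ly6a and Prom1 lie past the dashed 1.5-fold lines, and the other panel genes at or above that mean lie between them.

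The regulators with measurable levels stayed within 1.5-fold. Cited1 encodes a coactivator of estrogen receptor alpha that is needed for ductal growth at puberty in mouse. It was at 148.4 FPKM in CKO and 131.87 in Ctrl, which is 0.17 on the log2 scale with a counting interval of 0.06 to 0.28. Tbx3 encodes a T-box repressor required for the mammary placode. It was at 18.04 FPKM in CKO and 21.91 in Ctrl, which is -0.27 on the log2 scale with a counting interval of -0.40 to -0.16. Its deposited false discovery rate is 7.58e-05 in the authors' deposited table. The antisense gene Tbx3os1 overlaps Tbx3 and shares 1.36% of its 50-base windows. Cited1 was slightly higher and Tbx3 slightly lower in CKO, beyond counting error and short of the fold rule. In the authors' test of one library against the other, the false discovery rate of Cited1 is 0.0385, above 0.001. Of the genes tested, 18.6% had a ratio as far or farther on the side of Cited1, and 15.8% on that of Tbx3.

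Msx1 and Msx2 encode related homeobox factors that act downstream of BMP signals in developing epithelium. They differed from each other in level far more than the libraries did. Msx2 was at 10.5 FPKM in CKO and 9.22 in Ctrl, and Msx1 at 0.36 in CKO and 0.71 in Ctrl. The level of Msx2 was 29.2 times that of Msx1 in CKO and 13.0 times in Ctrl. For Msx2 the log2 ratio was 0.18, with an interval of -0.07 to 0.45 that includes no difference. For Msx1 only 8 reads in CKO and 17 in Ctrl lay behind the values, and the log2 ratio of -0.49 had an interval of -2.38 to 0.33. No difference was detectable at this depth for either factor.

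The abundant secreted factors had the smallest ratios of the panel. Ptn encodes pleiotrophin, a heparin-binding growth factor, and made up 58.6% of the summed panel FPKM in CKO and 63.0% in Ctrl. Its log2 ratio was -0.09, the counting interval ran from -0.12 to -0.06, and the level was 1.07-fold lower in CKO from about 18812 reads in CKO and 21900 in Ctrl. Its deposited false discovery rate is 5.95e-11 in the authors' deposited table. Wfdc2 encodes a small secreted protein with whey acidic protein domains, known as HE4 in human. Wfdc2 was at 371.19 FPKM in CKO and 357.25 in Ctrl, which is 0.06 on the log2 scale with a counting interval of -0.02 to 0.13. Of 10 panel genes, 4 have a deposited false discovery rate of at most 0.001, against 10.6% of all genes, and 0 carry a deposited call, against 1.25%.

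Fgl1 and Sytl2 were barely expressed. Fgl1 encodes a fibrinogen-like protein that liver secretes and that binds the lymphocyte receptor Lag3. It was at 0.64 FPKM in CKO and 0.8 in Ctrl, and the interval of its log2 ratio ran from -1.85 to 1.12. The deposited p-value of Fgl1 is returned by 8 reads in CKO and 11 in Ctrl and by no other pair of read numbers near the estimates. Sytl2 encodes a synaptotagmin-like effector that ties Rab27 vesicles to membranes. It was at 0.95 FPKM in CKO and 0.77 in Ctrl, with an interval of -0.31 to 0.98. Its FPKM values correspond to 46 reads in CKO and 40 in Ctrl, but its deposited p-value is returned near those estimates only by 46 reads in CKO and 46 in Ctrl. For Sytl2 the FPKM and the deposited test thus give different ratios, both within the interval.

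Relatives and known partners of the panel genes were described by the same rule, leaving the panel itself out. Of 101 such genes 68 were tested. The rule counted 4 as higher and 4 as lower, against 2.28% and 3.04% of all genes tested. The same shares stand beside every list below. Over the 68 genes the median log2 ratio was -0.08, against -0.03 over all genes tested. Of the genes counted as higher, the one with the largest ratio was a neighbour of Ly6a. Ly6d, a Ly6 family surface gene, stood at 429.54 FPKM in CKO and 92.46 in Ctrl, a 4.63-fold ratio with a log2 interval of 2.10 to 2.33. Lynx1, a Ly6 family modulator of nicotinic receptors, was at 4.29 FPKM in CKO and 1.61 in Ctrl. Of 10 tested Ly6 relatives 2 were counted higher and 0 counted lower. The list had a median log2 ratio of 0.05. The most abundant, Ly6e, was at 1156.33 FPKM in CKO and 1136.98 in Ctrl, and Lypd3 at 274.59 in CKO and 272.06 in Ctrl. These 2 thus stood close to their Ctrl levels, and Ly6d, also abundant, did not. Within 250 kb of Ly6a, 5 other genes were tested, all of the Ly6 family, and 2 of them were higher, Ly6d and Lynx1.

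Prom2, the other prominin gene, was at 88.52 FPKM in CKO and 71.16 in Ctrl, which is 0.31 on the log2 scale with a counting interval of 0.25 to 0.38. It was above Prom1 in both libraries and on the other side of 0. None of the 3 tested neighbours of Prom1 within 250 kb was counted as higher or lower. Over the whole panel 35 neighbours were tested, of which 5 were higher and 1 lower, against 2.28% and 3.04% of all genes tested. Beside the Ly6 genes these were Ube2c and Slpi near Wfdc2, Tmem126a near Sytl2 and Ror2 near Msx2. Ly6d, Lynx1 and Slpi are also among the relatives counted as higher.

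For the regulators, 7 tested genes of the Cited family, their acetyltransferase partners and the AP-2 factors included none counted as higher or lower, and their median log2 ratio was -0.21. Cited2 was at 105.03 FPKM in CKO and 83.29 in Ctrl, the AP-2 factor gene Tfap2c at 30.33 in CKO and 30.55 in Ctrl, and the acetyltransferase gene Ep300 at 15.69 in CKO and 20.97 in Ctrl. Of 8 other T-box genes looked up in the table, 1 reached the mean of 1 FPKM, Tbx6 at 1.52 FPKM in CKO and 1.54 in Ctrl. Of 5 other genes of the Msx and Dlx homeobox families in the table, 1 did, Dlx5 at 2.89 in CKO and 2.88 in Ctrl. Tbx3 and Msx2 thus stood above the listed members of their families in both libraries.

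The BMP axis, which feeds into Msx genes in other epithelia, had 15 tested genes, of which 1 was counted higher and 1 counted lower. On the log2 scale the median was -0.18. Id4, a BMP-responsive inhibitor of helix-loop-helix factors, was at 2.23 FPKM in CKO and 1.31 in Ctrl. It rested on about 42 reads in CKO and 27 in Ctrl, with a log2 interval of 0.03 to 1.52. The receptor gene Bmpr1b was at 2.52 FPKM in CKO and 4.03 in Ctrl. Both were just past the 1.5-fold limit of the rule, and neither passed it with an added 1 FPKM. Id3, the most abundant, was at 67.46 FPKM in CKO and 73.29 in Ctrl, the signal mediator gene Smad4 at 33.05 in CKO and 37.56 in Ctrl, and the receptor gene Bmpr2 at 8.78 in CKO and 11.41 in Ctrl.

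Among 12 tested genes of the pleiotrophin axis, 0 were counted higher and 1 counted lower. Over the 12 genes the median log2 ratio was -0.09. The one lower was Ptprz1, the phosphatase receptor for pleiotrophin, at 1.58 FPKM in CKO and 3.07 in Ctrl, which is -0.78 on the log2 scale with a counting interval of -1.31 to -0.61. The proteoglycan gene Sdc4 was at 517.47 FPKM in CKO and 461.98 in Ctrl, the nucleolin gene Ncl at 112.83 in CKO and 108.16 in Ctrl, and the endocytic receptor gene Lrp1 at 8.62 in CKO and 11.39 in Ctrl. The receptor genes Alk and Ltk, also low in level, were not counted as lower. Alk was at 2.01 FPKM in CKO and 1.26 in Ctrl and Ltk at 3.84 in CKO and 3.94 in Ctrl, and Alk passed the rule as higher with an added 0.1 FPKM in place of 0.5.

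The relatives of the other secretory genes were mostly level. Of 5 tested genes around Fgl1 none was counted as higher or lower, with a median of -0.09. The fibrinogen gene Fgg was at 262.38 FPKM in CKO and 278.82 in Ctrl, and Angptl4, a lipase inhibitor of the same fold family, at 251.53 in CKO and 181.31 in Ctrl. Of 10 tested Sytl and Rab27 genes, 0 were counted higher and 1 counted lower. The list had a median log2 ratio of 0.03. That one was Exph5, another Rab27 effector, at 2.11 FPKM in CKO and 3.59 in Ctrl. With an added 1 FPKM, Exph5 did not pass the rule. Sytl1 was at 30.55 in CKO and 28.14 in Ctrl and the melanophilin gene Mlph at 30.79 in CKO and 27.42 in Ctrl. Of 6 tested relatives of Wfdc2, 1 was counted higher and 1 counted lower. On the log2 scale the median was 0.15. The protease inhibitor gene Slpi was at 22.98 FPKM in CKO and 14.81 in Ctrl, the milk whey gene Wap at 0.82 in CKO and 6.9 in Ctrl, and the most abundant, Wfdc18, at 409.01 in CKO and 404.33 in Ctrl.

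**Figure D4:**
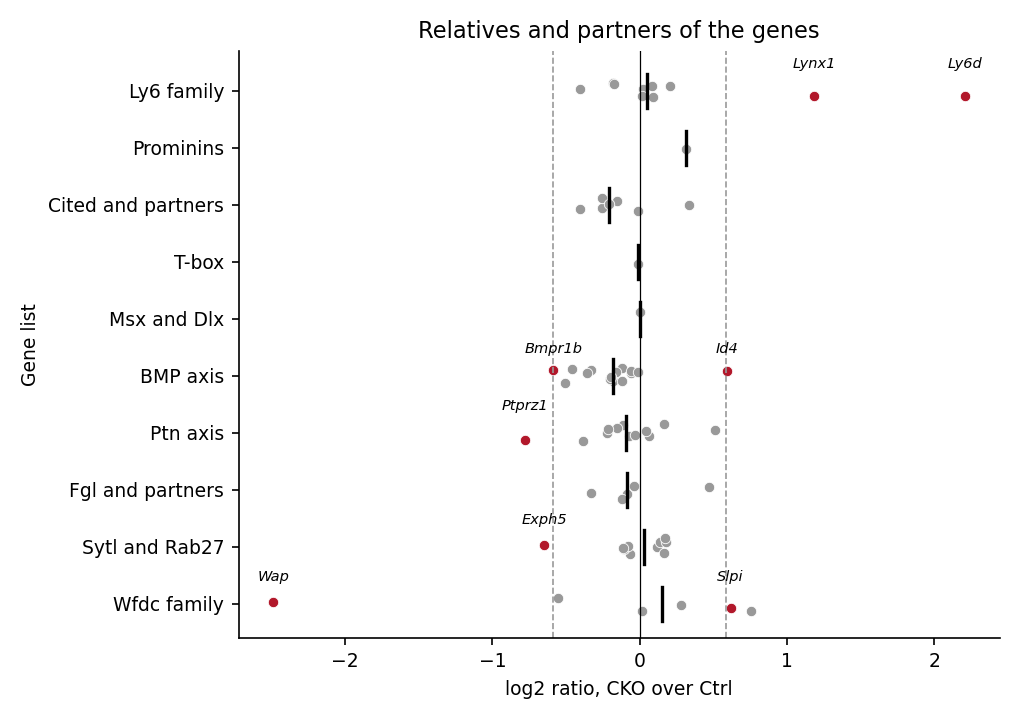
Log2 ratio of CKO over Ctrl of every tested relative or partner of the panel genes, by list, panel genes left out. Red points passed the 1.5-fold rule and are named, black bars are list medians, and dashed lines mark 1.5-fold. Ly6d, at 2.21, and Wap, at -2.49, lie farthest out.

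The panel was read against markers of the cells that a luminal sort can hold. The luminal genes Krt18 and Krt8 were at 10398.36 and 4476.23 FPKM in CKO and at 6606.79 and 3871.08 in Ctrl. Other hormone-sensing genes had 14 tested members, of which 0 were counted higher and 3 lower, against 2.28% and 3.04% of all genes tested. Over the 14 genes the median log2 ratio was -0.26. The hormone receptor genes Esr1 and Pgr, named as the defining markers, were at 28.28 and 18.24 FPKM in CKO and at 24.48 and 24.9 in Ctrl. On the log2 scale the FPKM of Esr1 gave 0.204, and counting error allowed 0.091 to 0.325. The deposited p-value of Esr1 implied only 0.027, below that range. A higher level of Esr1 in CKO thus rests on the FPKM alone. For Pgr both sources were close, at -0.439 from FPKM and -0.451 from the p-value. The 3 counted lower were Tph1, Calca and Esrrb. Tph1, the serotonin synthesis enzyme gene, was at 28.27 FPKM in CKO and 57.79 in Ctrl. The calcitonin gene Calca was at 6.29 in CKO and 22.82 in Ctrl. The orphan receptor gene Esrrb was at 1.03 in CKO and 2.05 in Ctrl. The most abundant, S100a6 and the growth factor gene Areg, were at 809.73 and 302.47 FPKM in CKO and at 645.33 and 263.35 in Ctrl. Prom1 was lower in CKO alongside 3 of these 14 genes, while Ly6a was not.

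Markers of basal myoepithelial cells, the outer layer of the duct, were mostly higher in CKO. Of 12 tested 8 were counted higher and 1 counted lower in CKO, the median log2 ratio was 0.73, and the 14 listed summed to 324.77 FPKM in CKO and 182.04 in Ctrl. At 2-fold, and by the deposited calls, 1 of them was counted higher. The basal keratin gene Krt14 was at 90.79 FPKM in CKO and 44.49 in Ctrl, the actin gene Acta2 at 66.72 in CKO and 33.68 in Ctrl, and the regulator gene Trp63 at 1.05 in CKO and 2.96 in Ctrl. Ly6a is also expressed by endothelial and blood cells. Of 9 tested endothelial markers 0 were higher and 1 lower, and the 10 listed summed to 40.45 FPKM in CKO and 38.78 in Ctrl. Eng was at 14.44 FPKM in CKO and 12.06 in Ctrl, and Vwf at 8.52 in CKO and 9.98 in Ctrl. Pecam1 was at 6.1 in CKO and 4.48 in Ctrl, and Flt1, the lower one, at 1.37 in CKO and 2.32 in Ctrl. Flt1 did not pass the rule with an added 1 FPKM or after centring on the median of tested genes. Of 6 tested immune markers 1 was higher, Cd74, at 34.79 FPKM in CKO and 17.98 in Ctrl. Cd68 was at 9.97 in CKO and 8.49 in Ctrl, and Lyz2 at 6.57 in CKO and 4.42 in Ctrl. The 12 listed summed to 56.89 in CKO and 36.07 in Ctrl, a difference that came mostly from Cd74. Under 1 FPKM in both libraries were 6 of the 12. Of 5 tested fibroblast markers 1 was higher, Mmp2, at 6.71 FPKM in CKO and 4.28 in Ctrl. With an added 1 FPKM 0 were higher, and by the deposited calls 0 were higher and 1 lower. Dcn, the most abundant, was at 30.74 in CKO and 25.57 in Ctrl. Col1a2, at 3.22 in CKO and 4.24 in Ctrl, had a counting interval on the lower side. So did Lum and Pdgfra, both under the mean of 1 FPKM. The 9 listed summed to 50.37 in CKO and 45.46 in Ctrl. The 3 adipocyte markers in the table summed to 44.34 FPKM in CKO and 33.67 in Ctrl. Nearly all of this was Fabp4, at 44.19 in CKO and 33.36 in Ctrl. The other 2 were under 1 FPKM in both libraries and not higher in CKO. The listed adipocyte markers Adipoq and Lep and the hormone-sensing marker Agr2 had no row in the table. No marker with a row was at the floor of the table in both libraries, and the T cell marker Cd3e was at the floor in CKO. The part of these cells in the ratio of Ly6a or of Prom1 was not tested.

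Progenitor and alveolar markers, the receptor-negative side of the luminal layer, had 16 tested members with 1 counted higher and 5 counted lower. The list had a median log2 ratio of -0.14. The iron carrier gene Lcn2 and the casein gene Csn3 were the most abundant, at 1059.54 and 861.06 FPKM in CKO and at 851.63 and 867.36 in Ctrl. The one counted higher was the chemokine gene Cxcl1, at 180.21 FPKM in CKO and 79.5 in Ctrl. The lower ones were the transferrin gene Trf at 444.01 FPKM in CKO and 715.71 in Ctrl, Tspan8 at 7.84 in CKO and 13.46 in Ctrl, Hey1 at 3.36 in CKO and 6.94 in Ctrl, and the milk genes Wap, given above, and Csn2, at 1.56 in CKO and 4.07 in Ctrl. The 5 luminal keratin and Epcam genes included 1 counted as higher, Krt18, and their median log2 ratio was 0.21. Krt19 was at 1590.95 FPKM in CKO and 1309.36 in Ctrl.

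**Figure D5:**
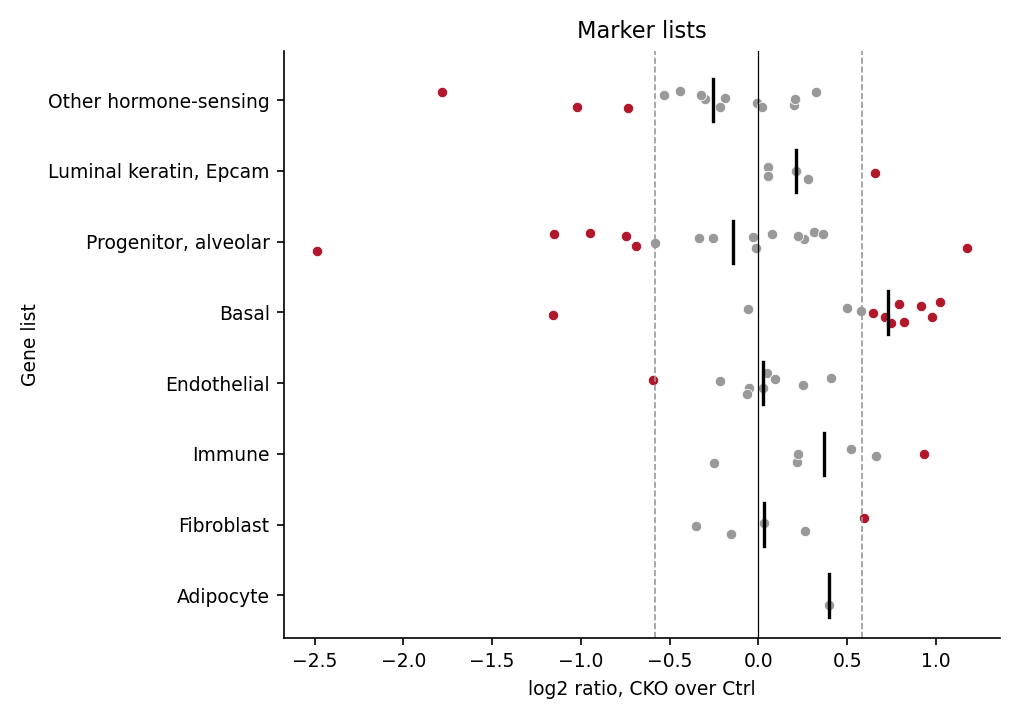
Log2 ratio of CKO over Ctrl of every tested marker, by cell type list. Red points passed the 1.5-fold rule, black bars are list medians, and dashed lines mark 1.5-fold. The basal list lies to the right, with a median of 0.73, and the other hormone-sensing list to the left, with a median of -0.26.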

How the data were processed

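The authors deposited 1 expression value per gene and library for 16906 genes, aligned and quantified with HISAT, Bowtie2 and RSEM on mm10, per the submitters' processing notes, which give no versions or order. The deposited values carry no unit in the header. They are FPKM, since multiplied by the length in kilobases they sum to 999909 in CKO and 999609 in Ctrl, and none is below 0.01. The deposited log2 ratio equals the ratio of both FPKM columns in every row within 0.002. The deposited p-value and false discovery rate come from a test between the reads of both libraries, which compares libraries and not conditions.

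Reads were estimated from those p-values. Genes at the floor in Ctrl returned a whole number of reads within 0.01 for 39 of 39, with 47.792% of all reads in CKO. A fit over 11591 genes gave about 11400000 reads in CKO and 12500000 in Ctrl. Each FPKM was turned into reads through its length and these totals. Intervals are 95% and cover counting error only, since each group had 1 library. They take reads as independent, and copied reads are not independent molecules, so the intervals can be too narrow even for counting error. The steps were run on simulated reads whose p-values came from the same formula that was used to read them back. That run could not show whether the deposited p-values follow this formula. Python 3.11.15, scipy 1.17.1 and pandas 2.3.3 were used. Sequences are from RefSeq and GENCODE M21, and 10 of 10 panel genes matched by Entrez identifier.

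The panel genes and all lists were chosen with earlier results of these data known. Outside the panel, the rule for named genes took from each list the 2 with the highest mean and the 2 with the interval bound farthest from a ratio of 1. Esr1, Pgr, Ly6c1, Ly6i, Alk, Ltk, Lum, Pdgfra, Cd3e and genes named in counts of 5 or fewer were chosen after their values were seen. Alternatives covered the pseudocount, the minimum level, centring, the fold, the deposited calls and the seed match.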

Additional observations from a re-analysis of the deposited data

How the results depend on the processing

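The log2 ratios of the 10 panel genes stayed within their counting intervals under pseudocounts of 0.1 and 1 FPKM, under none, after centring on the median of all tested genes, and when taken from the deposited p-value. In the panel 1 gene was higher and 1 lower under every pseudocount, centring and level minimum tried. At 2-fold and by the deposited calls, 0 panel genes were higher and 0 lower, and at 1.2-fold 2 were lower. Over all genes, 266 were higher and 355 lower, which became 945 and 1623 at 1.2-fold, 87 and 65 at 2-fold, 104 and 108 by the deposited calls, and 144 and 117 when the minimum mean was 5 FPKM, while a pseudocount of 1 FPKM gave 227 lower. Among relatives and partners, 8 were higher and 11 lower at 1.2-fold, 2 and 1 at 2-fold and by the deposited calls, 2 and 0 at a minimum mean of 5 FPKM, and 2 were lower with a pseudocount of 1 FPKM. Among other hormone-sensing genes 1 was higher and 7 lower at 1.2-fold. Of the basal markers, 8 of which were higher, 1 was higher at 2-fold and by the deposited calls. Of the progenitor and alveolar markers, 5 of which were lower, 2 were lower at 2-fold and 3 by the deposited calls or at a minimum mean of 5 FPKM. A 6-base match gave 3 panel genes with a site, and any annotated 3' UTR gave 0. The fewer or more genes follow from the looser or stricter rule. Scaling by read counts was not run, since the table holds none, and the planned protein comparison was not run. No paired analysis was possible because each group has 1 library.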
